A study of Mus musculus with 4 samples.

Results

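The guidance genes described here encode the ligands and receptors of 4 families: ephrins with Eph receptors, semaphorins with plexins and neuropilins, netrins with Unc5 receptors, and Slits with Robo receptors. They were chosen by a rule on gene symbols, set with earlier results of these data known, among probe sets assigned to 1 gene. A gene with several probe sets was read from the one whose mean over the 4 arrays was highest. The rule found 72 of the 18194 genes tested. Of these, 37 encode ligands and 32 receptors, and the other 3 matched by name only: Unc50, a gene of an inner membrane protein, Unc5cl, which resembles the Unc5 genes, and Plxna4os1, a transcript antisense to Plxna4. Expression was compared between mouse embryonic stem cells at day 0 and epiblast-like tissue at day 3 of SFEBq, a serum-free culture in which dissociated stem cells quickly re-aggregate and float. Each day had 2 samples of total RNA, each measured on 1 Affymetrix expression array. No transgene, knockdown or added factor was given for either day, and the strain and line of the stem cells are not given in the sources used here. Every sample carried the same cell type label, differentiated embryonic stem cells, so the days were told apart by title. The samples were not stated to come from separate cultures, so the p-values rest on a spread between samples that may be only technical.

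Eph receptors are receptor tyrosine kinases that bind ephrins on the surface of neighbouring cells, so that both cells receive a signal at their contact. Semaphorins act through plexins, with neuropilins as co-receptors for the secreted class, while netrins act through Dcc, Neo1 and Unc5 receptors and Slits through Robo receptors. All 4 families are best known for steering axons. In the early embryo they are also known for cell sorting, boundary formation and epithelial movement.

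Values are log2 RMA values, in which a step of 1 is a 2-fold difference. Single genes are compared only with themselves, because probe sets differ in how brightly they report a transcript, and a marker list's summed level follows its brightest probe sets. Duplicate arrays resembled each other more than arrays of different days did, with Pearson's r across genes of 0.9975 (day 0) and 0.998 (day 3) within days and 0.9618 to 0.9619 between them. The labels were set against marker genes. The marker lists were chosen with earlier results of these data known, so they are not an independent check. All 6 naive pluripotency markers were lower at day 3 and all 6 epiblast markers higher (limma, Benjamini-Hochberg adjusted p under 0.05). All 8 markers of visceral endoderm, an extra-embryonic tissue, were also higher, and their summed unlogged level was 1040 to 1060 at day 0 and 15800 to 18100 at day 3. Their part in the differences below was not tested. In such bulk samples, fewer cells of a type and less RNA per cell cannot be told apart, and culture format and differentiation differ together between the days, so they cannot be told apart. Of the 5 neural progenitor markers 1 was higher and 1 lower, and of the 6 neuron markers 2 were higher and 3 lower. Of the 6 fibroblast markers 3 were higher, and of the 5 blood and macrophage markers 1 was lower.

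Of the 72 genes, 34 were called between the days (limma, p-values adjusted over all 18194 genes by Benjamini-Hochberg, threshold 0.05), with 27 higher and 7 lower at day 3. Over all genes tested 42.3% were called, 20.9% higher and 21.4% lower. Of the 72 guidance genes 47.2% were called, 37.5% higher and 9.72% lower. The share called in either direction was thus close to that of all genes, while the share higher was larger and the share lower smaller. By at least 2-fold, 15 guidance genes were called higher and 4 lower, 26.4% of the 72 in all, beside 10.2% of all genes. The higher share was 20.8%, beside 5.93% of all genes, and the lower share 5.56%, beside 4.25%. At this cut the lower share was thus not smaller. The median difference was 0.115 among the 72 genes and 0.01 among all genes. Ligands and receptors had similar counts, with 14 of 37 ligands higher and 4 lower, and 13 of 32 receptors higher and 3 lower. These counts, and those by class below, are to be read beside the shares of all genes. Median centring of the arrays moved every difference by -0.134, which gave 23 guidance genes higher and 11 lower. Over all genes it called 8518, against 7705, and the median difference became -0.123. The days did not overlap for 51 of the 72 genes, all 34 called genes among them, beside 69% of all genes. A level below the arrays' mean first quartile of 4.32 on both days was found for 7 guidance genes, namely Epha3, Epha5, Epha6, Ntn3, Robo2, Sema3d and Unc5d, none of them called.

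**Figure D1:**
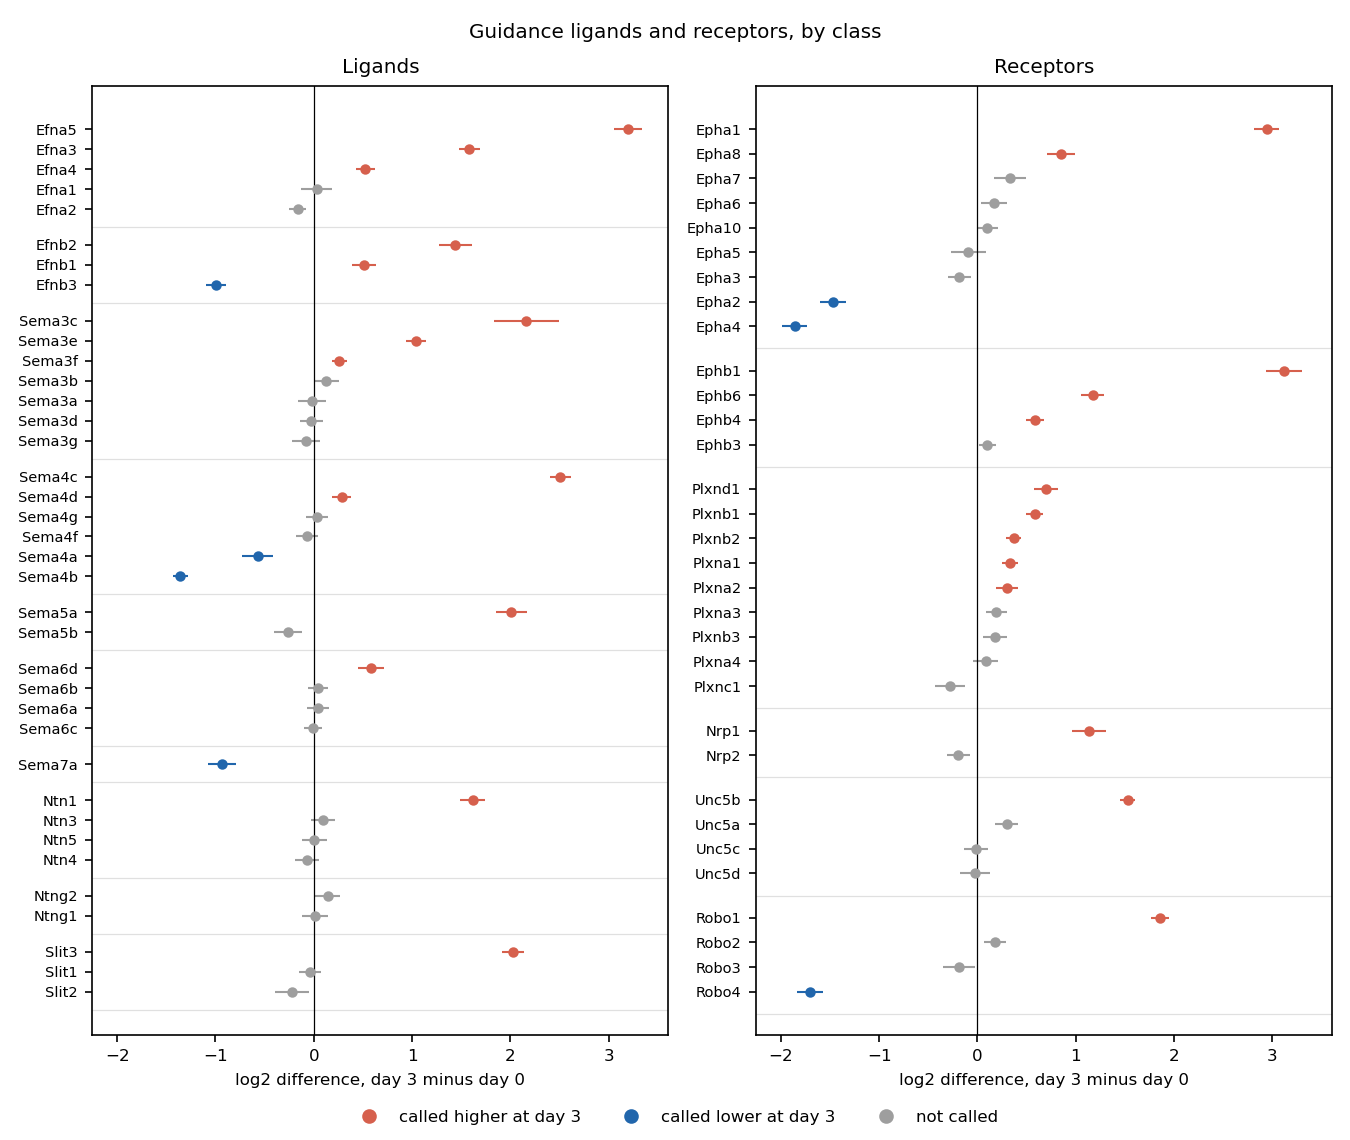
Log2 differences (day 3 minus day 0) of the 37 guidance ligands and 32 receptors, grouped by class in the order ephrin-A, ephrin-B, semaphorin 3 to 7, netrin, netrin-G and Slit on the left and EphA, EphB, plexin, neuropilin, Unc5 and Robo on the right. Points are the fitted differences from 2 arrays a day, bars their standard errors, and colour the call. The largest rises are Efna5, Ephb1 and Epha1 and the largest falls Epha4 and Robo4.

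The genes at both ends of this range were Efna5 and Ephb1, which rose most, and Epha4 and Robo4, which fell most. Their promoter sequences are shown because these 4 genes bound the response and their promoters differ widely in CpG content. Each sequence holds the 250 bases before the gene's start from RefSeq (build GRCm38.p6), read on the gene's strand. They lie at chr17:62881318-62881567 (minus strand), chr9:102354694-102354943 (minus strand), chr1:77515089-77515338 (minus strand) and chr9:37401722-37401971 (plus strand). Capitals mark matches to 6 short motifs, searched on both strands.
Efna5: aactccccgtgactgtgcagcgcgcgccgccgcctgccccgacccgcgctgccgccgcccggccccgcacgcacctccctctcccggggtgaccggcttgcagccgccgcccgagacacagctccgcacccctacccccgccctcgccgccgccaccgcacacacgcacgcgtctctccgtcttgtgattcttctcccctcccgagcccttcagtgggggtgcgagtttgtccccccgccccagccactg
Ephb1: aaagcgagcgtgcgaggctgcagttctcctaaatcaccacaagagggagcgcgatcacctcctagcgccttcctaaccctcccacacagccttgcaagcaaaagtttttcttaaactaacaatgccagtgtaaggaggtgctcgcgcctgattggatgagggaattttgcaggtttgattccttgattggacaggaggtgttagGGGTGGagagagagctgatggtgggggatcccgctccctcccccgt
Epha4: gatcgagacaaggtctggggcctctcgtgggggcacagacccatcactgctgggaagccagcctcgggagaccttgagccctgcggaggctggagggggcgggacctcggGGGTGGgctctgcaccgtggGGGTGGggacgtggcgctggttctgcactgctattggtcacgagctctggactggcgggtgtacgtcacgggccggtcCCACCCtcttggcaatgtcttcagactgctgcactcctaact
Robo4: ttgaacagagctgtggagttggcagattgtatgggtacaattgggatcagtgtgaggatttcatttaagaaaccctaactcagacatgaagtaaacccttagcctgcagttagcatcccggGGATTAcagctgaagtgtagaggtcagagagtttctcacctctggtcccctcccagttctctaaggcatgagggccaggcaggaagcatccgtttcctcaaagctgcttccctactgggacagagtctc
The motifs were TAATCC (Otx type), ATGCAAAT (the octamer of POU factors), CTTTGAT (Lef and Tcf), TTCNNNGAA (Stat), AAGGTCA (Esrrb) and CCACCC (Klf), and none contains another. The Epha4 window held 3 matches to CCACCC, which began 140, 120 and 42 bases before the start, and the Ephb1 window held 1, at 46 bases. The Robo4 window held 1 match to TAATCC, at 129 bases, and the Efna5 window held none of the 6. Among all 32851 promoters of the table, CCACCC was found in 28.1% and 3 or more times in 1.78%, and TAATCC in 6.25%. ATGCAAAT was found in 1.6%, CTTTGAT in 3.21%, TTCNNNGAA in 7.02% and AAGGTCA in 4.08%. The Efna5 window had 32 CpG dinucleotides, more than 95.4% of all promoters, while Epha4 had 14, Ephb1 10 and Robo4 2. A promoter was found for 62 of the 72 genes, with a median of 15 CpG, against 12 over the promoters of genes tested. The median over all promoters, with which the 4 windows were compared, was 6. CCACCC was found in 40 of the 78 promoters of guidance genes (51.3%), whose median GC content was 64.2%. Among the promoters of genes tested, whose median GC content was 57.6%, it was found in 32.8%. It was in 37.5% of 16 promoters of genes at least 2-fold higher and in 40% of 5 at least 2-fold lower. It was in 63.2% of 19 promoters of genes called under 2-fold and in 50% of 36 not called. The part of these motifs in the differences was not tested.

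Among the A-class ephrins, which are anchored to the membrane by a lipid, 3 of 5 genes rose and none fell. Efna5 stood at 5.33 and 4.89 on the day 0 arrays and at 8.33 and 8.29 on the day 3 arrays. Both day 3 arrays were far above both day 0 arrays, and the difference was 3.20 ± 0.14 (SE, n = 2 a day, limma adjusted p = 3.5e-08). Its second probe set rose by only 0.41, so that the mean over both gave 1.80. Efna3 was at 7.05 and 6.89 at day 0 and at 8.47 and 8.64 at day 3, a rise of 1.58 ± 0.10 (limma adjusted p = 5.7e-07), which its second probe set shared (1.02). Efna4 rose by 0.52 ± 0.10. Efna1 and Efna2 were not called, with differences of 0.03 and -0.16.

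The B-class ephrins span the membrane and signal back into the cell that carries them, and all 3 were called, 2 higher and 1 lower. Efnb2 was at 8.68 and 8.04 at day 0 and at 9.72 and 9.87 at day 3. The days did not overlap, although the day 0 arrays lay further apart than the day 3 arrays, and the rise was 1.44 ± 0.17 (limma adjusted p = 4.2e-05). A second Efnb2 probe set rose by 1.42 and the other 2 were not called, so that the mean of the 4 gave 0.82. Efnb1 rose by 0.51 ± 0.12 by its brightest probe set and by 0.78 and 1.41 by the others. Without day 3 replicate 2 its brightest probe set gave 0.42 and was not called (limma adjusted p = 0.10, against 0.0053 with all arrays). Efnb3 went the other way, from 7.81 and 7.94 to 6.83 and 6.93, a fall of 0.99 ± 0.10 (limma adjusted p = 1.7e-05).

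The A-class Eph receptors split, with 2 of 9 higher, 2 lower and 5 not called. Epha1 rose from 5.88 and 5.51 at day 0 to 8.63 and 8.64 at day 3. The day 3 arrays were nearly equal and both were above both day 0 arrays, with a rise of 2.94 ± 0.13 (limma adjusted p = 2.8e-08). Its other probe sets differed by 0.82, which was called, and 0.19, which was not, and the mean of the 3 gave 1.32. Epha8 rose by 0.85 ± 0.14. Epha4, which binds ephrins of both classes, fell from 9.43 and 9.10 to 7.54 and 7.27, by 1.86 ± 0.13 (limma adjusted p = 6.9e-07). All 5 Epha4 probe sets were called lower, with differences from -1.86 to -1.26. Epha2, a receptor for A-class ephrins that is common in epithelia, was at 9.73 and 9.55 at day 0 and at 8.40 and 7.94 at day 3, a fall of 1.47 ± 0.13 (limma adjusted p = 6.8e-06). Epha7 was not called by its brightest probe set (0.33 ± 0.16, limma adjusted p = 0.14). It was called for the mean of its 4 probe sets (0.39, limma adjusted p = 0.010), and 1 of the 4 rose by 1.16. The brightest probe set gave 0.09 without day 0 replicate 1 (adjusted p = 0.68), 0.18 without day 3 replicate 2 (adjusted p = 0.60) and 0.57 without day 0 replicate 2, where it was called (adjusted p = 0.0041). Epha3, Epha5 and Epha6 were below the mean first quartile on both days.

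The B-class Eph receptors found by the rule moved one way where called, with 3 of 4 higher and none lower. Ephb2 was not among the 4. Ephb1 was at 5.10 and 4.45 at day 0 and at 7.81 and 7.97 at day 3, an increase of 3.12 ± 0.19 (SE, limma adjusted p = 2.7e-07). Ephb6, whose kinase domain is inactive, rose from 4.98 and 4.94 to 6.16 and 6.11, by 1.17 ± 0.12 (limma adjusted p = 1.4e-05). Ephb4, a receptor of Efnb2 known from blood vessels, rose by 0.59 ± 0.09, and Ephb3 was not called. Over the ephrin and Eph genes found by the rule, 10 of 21 rose and 3 fell, beside 20.9% and 21.4% of all genes tested. Their median difference was 0.33.

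**Figure D2:**
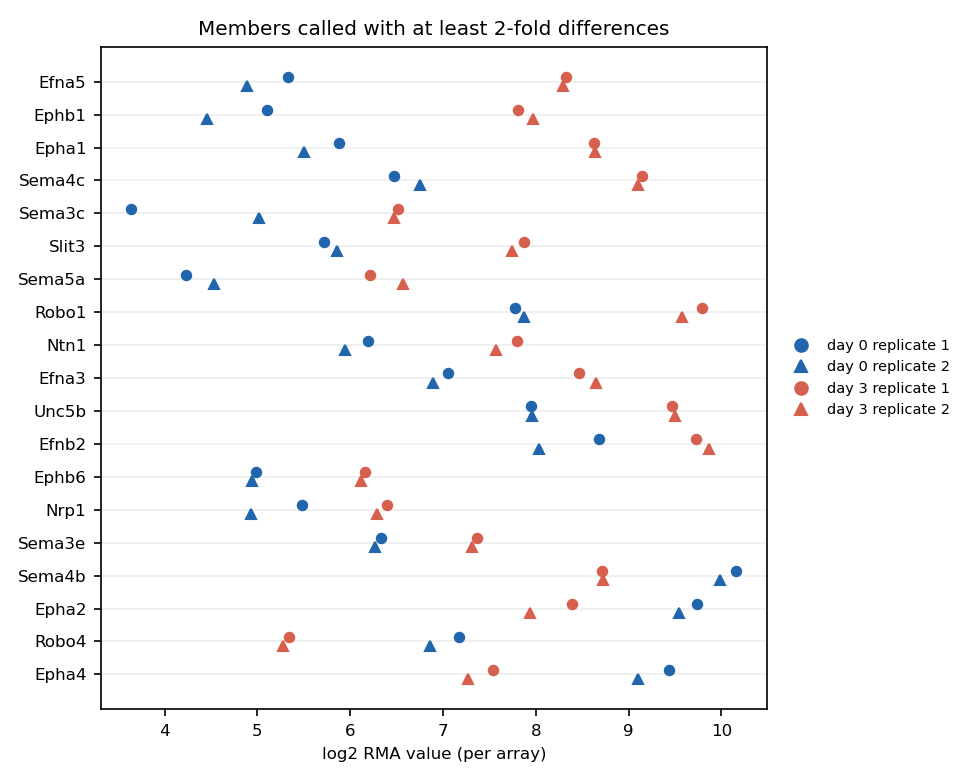
Log2 RMA values on each of the 4 arrays for the 19 guidance genes called with at least 2-fold differences, ordered by difference. Blue marks are day 0 and red marks day 3, with circles for replicate 1 and triangles for replicate 2; the days do not overlap for any of the 19 genes, and Sema3c has the widest gap between day 0 duplicates (1.38).

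Class 3 semaphorins are secreted, and 3 of their 7 genes rose and none fell. Sema3c, a ligand of neuropilin complexes, was at 3.64 and 5.02 at day 0 and at 6.51 and 6.47 at day 3. Its day 0 duplicates lay 1.38 apart, the widest gap among the 72 genes, and the rise was 2.16 ± 0.33 (limma adjusted p = 3.3e-04). It was 1.47 without day 0 replicate 1 and 2.85 without day 0 replicate 2. A second Sema3c probe set was not called, and the mean of both gave 1.19. Sema3e, which binds Plxnd1 without a neuropilin, rose from 6.33 and 6.27 to 7.37 and 7.32, by 1.04 ± 0.10 (limma adjusted p = 1.4e-05), and 2 of its other 3 probe sets were called higher too. Sema3f, a ligand that prefers Nrp2, rose by 0.26 ± 0.07. Its call was lost after median centring (0.125, adjusted p = 0.20), with a variance prior that ignores intensity (adjusted p = 0.057) and without probe sets matching several transcripts (0.15, adjusted p = 0.32). It was also lost without day 0 replicate 1 (0.195), day 3 replicate 1 (0.27) or day 3 replicate 2 (0.25), at adjusted p-values of 0.082, 0.091 and 0.11.

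Class 4 semaphorins span the membrane, and of their 6 genes 2 rose and 2 fell. Sema4c, a ligand of Plxnb2, rose from 6.48 and 6.76 at day 0 to 9.14 and 9.10 at day 3, by 2.51 ± 0.11 (limma adjusted p = 2.6e-08). Sema4b moved the opposite way, from 10.16 and 9.98 to 8.71 and 8.72, a fall of 1.36 ± 0.08 (limma adjusted p = 2.7e-07), and its second probe set fell by 0.56. Sema4a had a difference of -0.57 ± 0.16. Its call was lost without day 0 replicate 2 (-0.30, adjusted p = 0.091), day 3 replicate 1 (-0.56, adjusted p = 0.12) or day 3 replicate 2 (-0.58, adjusted p = 0.11). Sema4d, a ligand of Plxnb1, had a difference of 0.28 ± 0.10 that was called at an adjusted p = 0.045. That call was lost without day 0 replicate 2 (0.27, adjusted p = 0.068) or day 3 replicate 1 (0.15, adjusted p = 0.36), after quantile normalization again (0.25), median centring (0.15) or averaging of probe sets (0.12), and with a variance prior that ignores intensity. Sema4f was not called by its brightest probe set, while its second fell by 0.87 and the mean of both fell by 0.47 (limma adjusted p = 0.0027).

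In the other membrane-bound classes single genes stood out by size. Sema5a, which carries thrombospondin repeats, rose from 4.23 and 4.53 to 6.21 and 6.56, by 2.01 ± 0.16 (limma adjusted p = 2.2e-06). A second Sema5a probe set rose by 1.36 and 2 were not called, and the mean of the 4 gave 0.93. Sema7a, which is anchored by a lipid, was at 6.93 and 6.57 at day 0 and at 5.91 and 5.73 at day 3, a fall of 0.94 ± 0.14 (limma adjusted p = 3.0e-04), with a second probe set not called and a mean of -0.48. Sema6d was at 5.68 and 5.56 at day 0 and at 6.36 and 6.05 at day 3, a rise of 0.58 ± 0.13, but was not called without day 3 replicate 1 (0.43, adjusted p = 0.075) or from the mean of its 4 probe sets (0.19, adjusted p = 0.14). Sema6a, a ligand of class A plexins, was the gene whose result turned most on the probe set. The brightest one was not called (0.04 ± 0.11, limma adjusted p = 0.82), and its sign turned after quantile normalization again and after median centring. The other 2 rose by 2.75 and 1.14, from mean levels of 4.48 and 4.83 to 7.23 and 5.96, and the mean of the 3 rose by 1.31 (limma adjusted p = 6.4e-06). Leaving out probe sets that match several transcripts gave the 2.75. Sema5b was not called by its brightest probe set (-0.26), while its second fell by 0.35. It was called lower from the mean of both (-0.31, adjusted p = 0.040) and after median centring (-0.40, adjusted p = 0.041). With 1 array left out its brightest probe set gave -0.09 (without day 3 replicate 1) to -0.44 (without day 3 replicate 2), not called.

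Of the 11 semaphorin receptors 6 rose and none fell, so 54.5% were called, beside 42.3% of all genes. Of the 9 plexin genes 5 rose, with no difference of 2-fold by the probe sets kept. Plxnd1, the receptor of Sema3e, rose from 6.02 and 5.75 to 6.55 and 6.61, by 0.70 ± 0.13 (limma adjusted p = 0.0010). Plxnb1 was at 8.20 and 8.05 at day 0 and at 8.71 and 8.70 at day 3, a rise of 0.58 ± 0.09, while its second probe set rose by 2.16 and the mean of both by 1.37. Plxnb2 rose by 0.37 ± 0.08 and Plxna1 by 0.33 ± 0.08. Plxna1 was not called after median centring (0.196, adjusted p = 0.074) or without day 3 replicate 1 (0.29, adjusted p = 0.082). Plxna2 had a difference of 0.30 ± 0.11 at an adjusted p = 0.048, and its call was lost in 9 of 13 alternatives, with differences from 0.17 to 0.37 over the 13. Among the 9 were the replicate block (adjusted p = 0.064) and the fits without day 0 replicate 1 (0.24), day 3 replicate 1 (0.29) or day 3 replicate 2 (0.31).

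Of the neuropilins, Nrp1 rose from 5.49 and 4.93 to 6.39 and 6.29, by 1.14 ± 0.17 (limma adjusted p = 2.9e-04), with 2 of its 4 probe sets called and a mean of 0.59. Nrp2 was not called by its brightest probe set (-0.19 ± 0.11, limma adjusted p = 0.22). A second probe set of nearly the same mean level fell by 0.54, and the gene was called lower from the mean of its 4 probe sets (-0.29, adjusted p = 0.043) and after median centring (-0.33, adjusted p = 0.037).

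Netrin genes were called in 1 ligand and 1 receptor, or 20% of the 10 ligands and receptors found, beside 42.3% of all genes. Ntn1, the secreted ligand of Dcc, Neo1 and Unc5 receptors, rose from 6.19 and 5.95 to 7.79 and 7.57, by 1.61 ± 0.13 (limma adjusted p = 2.0e-06), while a dim second probe set was not called and the mean of both gave 0.86. Unc5b rose from 7.95 and 7.96 to 9.47 and 9.50, by 1.53 ± 0.08 (limma adjusted p = 7.8e-08), and its second probe set rose by 1.62. The duplicates of Unc5b lay closer together than the median gaps of the 72 genes, 0.162 at day 0 and 0.102 at day 3. Ntn3, Ntn4, Ntn5, Ntng1 and Ntng2 were not called, with differences from -0.07 to 0.14. The larger netrin-G difference was that of Ntng2, at 4.61 and 4.80 at day 0 and at 4.88 and 4.81 at day 3. Not called either were Unc5c, Unc5d and Unc5a, of which Unc5a had the largest difference (0.30 ± 0.12, limma adjusted p = 0.065). Dcc, the receptor through which netrin attracts axons, had a difference of -0.02 ± 0.10 that was not called (limma adjusted p = 0.90). Its sign turned without day 0 replicate 1 and in the mean of its probe sets. Neo1, a relative of Dcc, stood at 9.41 and 9.39 at day 0 and 9.66 and 9.72 at day 3, a rise of 0.29 ± 0.07 (limma adjusted p = 0.0057). That call was lost without day 3 replicate 2 (0.26, adjusted p = 0.066), after median centring (0.16) and in the mean of its 5 probe sets (0.125).

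Slit and Robo genes were called in both directions, 42.9% of the 7 in all, beside 42.3% of all genes. Slit3, a secreted ligand, rose from 5.71 and 5.86 to 7.88 and 7.75, by 2.02 ± 0.11 (limma adjusted p = 1.6e-07), while Slit1 and Slit2 were not called. Robo1, the most widely expressed Slit receptor, rose from 7.78 and 7.88 to 9.79 and 9.57, by 1.86 ± 0.09 (limma adjusted p = 7.6e-08). Its other 2 probe sets were not called, and the mean of the 3 gave 0.59. Robo4, a receptor known from endothelium, fell from 7.18 and 6.86 to 5.34 and 5.28, by 1.71 ± 0.13 (limma adjusted p = 2.0e-06). Of the 6 endothelial markers, 3 were lower and none higher at day 3, and their summed unlogged level was 555 on both day 0 arrays and 238 to 239 at day 3. Pecam1 carried most of that sum's fall, going from a mean of 8.24 at day 0 to 5.62 at day 3. Tek and Esam were the other two called lower, Cdh5 was not called (0.27), and Tie1 and Emcn were below the mean first quartile on both days. The part of these markers in the difference of Robo4 was not tested. Robo2 and Robo3 were not called.

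**Figure D3:**
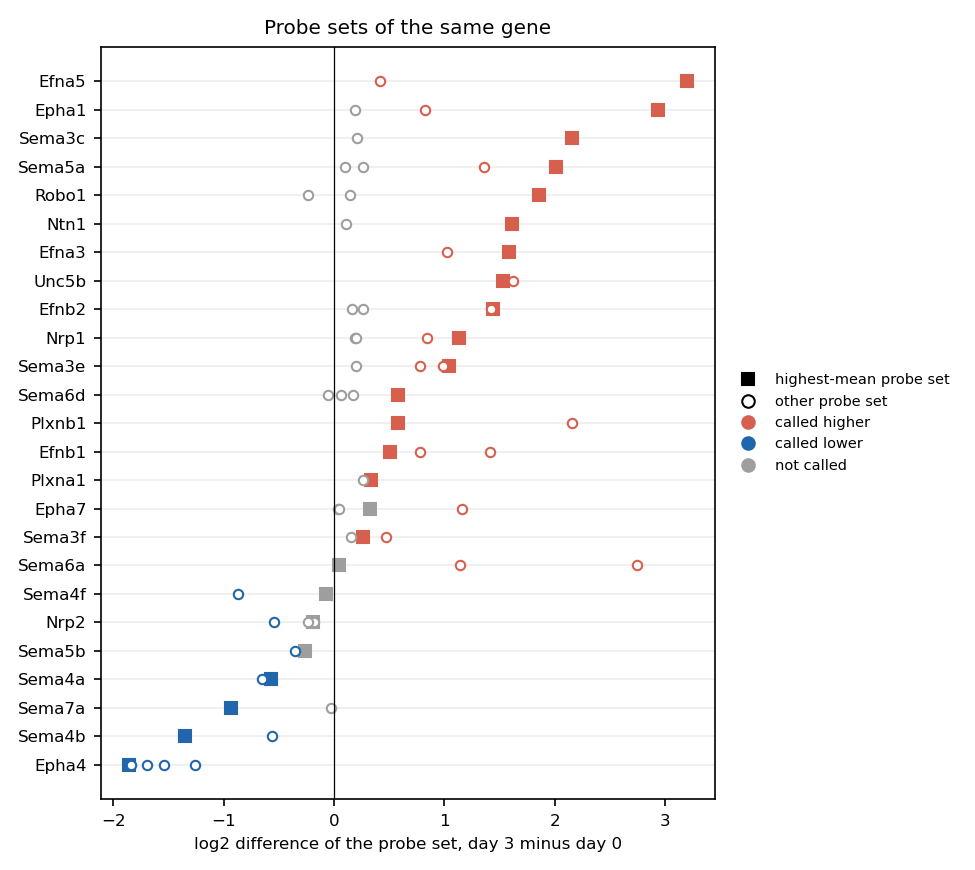
Log2 differences (day 3 minus day 0) of each probe set of the 25 guidance genes with more than 1 probe set and at least 1 called. Squares are the probe sets with the highest mean, used in the text, and open circles the others; colour gives the call over all probe sets. No gene has probe sets called in both directions, and Efna5, Epha1 and Sema6a show the widest spreads.

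Probe sets of the same gene often differed in size. The 72 genes had 159 probe sets, and 47 genes had more than 1. When every probe set was tested, none of the 47 genes had probe sets called in opposite directions. Of genes whose brightest probe set was called, 8 had all others called the same way and 12 had at least 1 that was not called. For 5 genes (Epha7, Nrp2, Sema4f, Sema5b and Sema6a) the brightest was not called while another was. The brightest Plxna2 and Sema4d probe sets were not called in that test (limma adjusted p = 0.064 and 0.060).

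**Figure D4:**
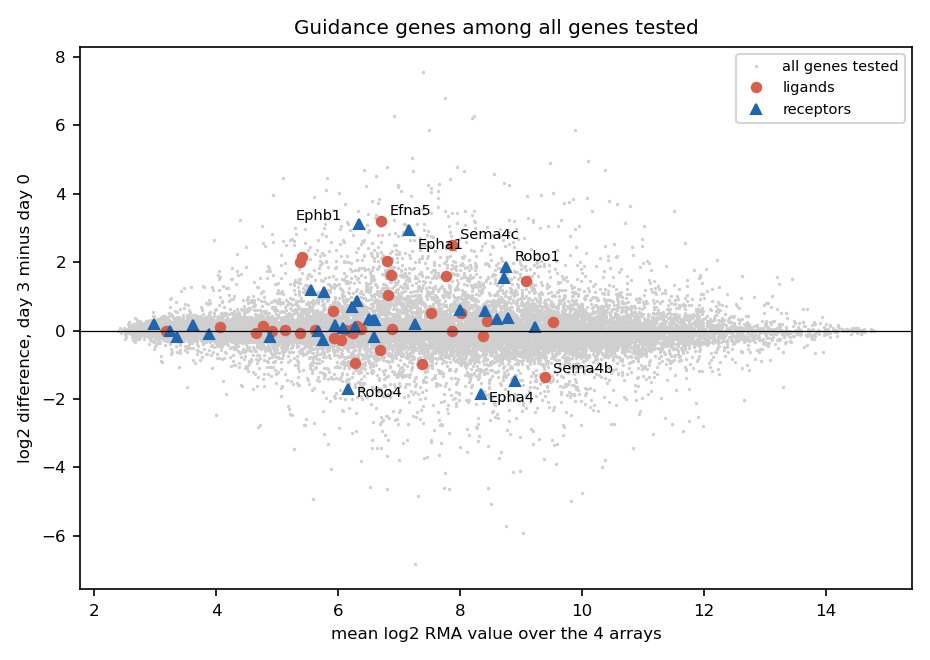
Difference between days (day 3 minus day 0, log2) against the mean log2 RMA value over the 4 arrays for all 18194 genes tested (grey), with ligands as red circles and receptors as blue triangles. Of the 72 guidance genes, 23 lie above the median level of all genes, and the labelled genes are some of those with large differences.

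The probe sets of guidance genes were dimmer than most, with a median value of 6.31 against 6.995 over all genes, and 23 of the 72 lay above the median of all genes. When the genes above that median were tested alone, 5997 were called, a larger share than the 42.3% over all genes. Of these 23 guidance genes 14 were higher and 4 lower, to be read against that larger share.

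Partners of these ligands and receptors were read from a list of 86 co-receptors, enzymes and cytoplasmic effectors, of which 82 were measured. Of these, 33 rose and 12 fell, beside 20.9% and 21.4% of all genes, and the median difference was 0.09. By at least 2-fold 11 rose and 1 fell (13.4% and 1.22% of the 82, beside 5.93% and 4.25% of all genes). Met, the receptor of hepatocyte growth factor and a partner of B-class plexins, rose by 2.79 ± 0.11 (SE, limma adjusted p = 1.2e-08), though a second, dimmer probe set was not called and the mean of both gave 1.52. Collapsin response mediators, which carry semaphorin signals to microtubules, rose in 4 of 5 cases. Dpysl2 rose from 9.21 and 9.07 to 11.60 and 11.64, by 2.48 ± 0.07, with a second probe set not called and a mean of 1.38. Dpysl3 rose by 1.92, Dpysl5 by 1.49 and Crmp1 by 1.32, and Dpysl4 was not called. Flrt3, a membrane protein that binds Unc5 receptors, rose by 2.23 ± 0.10 with both probe sets. Gpc1 (1.49), a heparan sulfate proteoglycan, Ablim1 (1.30), an actin-binding protein, Rgma (1.08), a ligand of Neo1, and the kinase gene Fyn (1.06) rose as well. The mean over the 4 Ablim1 probe sets was 0.41. Rnd1, whose protein binds plexins, fell by 1.04 ± 0.14 (limma adjusted p = 1.3e-04).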

How the data were processed

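The deposited values are on a log2 scale and were made by the authors with RMA in R 2.13.0, per the submitters' processing notes. RMA corrects background, makes array distributions alike and summarises probes; a change in total RNA cannot be seen, and differences of dim probe sets are compressed. Further settings and the genome build are not given in the sources used here. No detection calls were used. Of 45101 probe sets, 34958 had 1 gene symbol in the platform annotation, 932 several and 9211 none. Differences (day 3 minus day 0) were estimated by limma 3.58.1 under R 4.3.3 (lmFit, then eBayes with intensity trend) over 18194 genes, with no covariate, 2 residual degrees of freedom and a prior of 8.02. Tests were two-sided, with Benjamini-Hochberg adjustment over all genes and a call at an adjusted p under 0.05. Probe sets were also tested singly over all 34958.

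All 72 members may be named. Those called with at least 2-fold differences are given by array, as is the largest difference of each class. Partner genes are named where called at 2-fold, with Dcc and Neo1; 1 such partner is not reported here. Members, lists and rules were chosen with earlier results of these data known. The fit was tested on simulated data. Same-numbered arrays did not deviate together (correlation across genes of -0.0167), so replicate numbers were taken as names. The number of arrays limits the precision. Alternatives were other variance models, normalizations, level filters, probe set choices and thresholds, the replicate block, and each array left out.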

Additional observations from a re-analysis of the deposited data

How the results depend on the processing

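Of the 34 called guidance genes, 27 kept direction and call in every alternative that gave them a value at the same threshold, except the unmoderated test. The exceptions were Efnb1, Plxna1, Plxna2, Sema3f, Sema4a, Sema4d and Sema6d. None of the 34 reversed in these alternatives. At an adjusted p under 0.01, 6090 genes were called in all, with 24 guidance genes higher and 6 lower. The unmoderated test, which has 2 residual degrees of freedom, called 2148 genes in all, against 7705 as reported. It called 10 guidance genes higher and 1 lower (ligands 5 and 1, receptors 5 and 0). Testing against a log2 difference of 1 called 1136 genes in all, with 11 guidance genes higher and 4 lower (ligands 7 and 1, receptors 4 and 3). Among genes above the median level, which hold 23 of the 72, 14 were higher and 4 lower (ligands 7 and 2, receptors 7 and 2). A larger share of the genes tested was called in that setting than over all genes. Median centring called 8518 genes in all, with 11 guidance genes lower, against 7, and 5 receptors lower, against 3. Efna2, Epha3, Nrp2 and Sema5b were the added calls. With 1 array left out, 5845 to 7442 genes were called, with 22 to 27 guidance genes higher and 6 to 9 lower, 11 to 13 ligands higher and 3 to 5 lower, and 11 to 14 receptors higher and 3 to 4 lower. With the replicate block 7661 genes were called, 27 guidance genes higher and 7 lower, and among guidance genes only the calls of Plxna2 (lost) and Epha7 (gained) changed. Calls of marker genes were not compared between settings. The difference of Sema6a, not called as reported (0.04), was -0.054 after quantile normalization again and -0.093 after median centring. That of Dcc (-0.02) was 0.04 in the mean of its probe sets and from -0.065 to 0.021 with 1 array left out, the highest without day 0 replicate 1. The cause of these changes was not tested, beyond fewer genes tested or a shift that the setting makes itself. Dim probe sets limit what could be seen for the 7 guidance genes below the first quartile.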

Other observations

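Other gene families with guidance roles were read in the same fit, from 29 measured genes of 30 listed, chosen with earlier results of these data known and named after their values were seen. Of these 15 were higher at day 3 and 3 lower, beside 20.9% and 21.4% of all genes tested. Cxcl12, a chemokine that directs migrating cells, rose from 4.79 and 4.37 at day 0 to 8.17 and 7.98 at day 3. That rise was 3.50, or 2.35 in the mean of its probe sets. A receptor gene of Cxcl12, Cxcr4, rose from 4.36 and 4.34 to 5.25 and 5.18. Ackr3, listed with them, was not called (-0.22). All 8 genes of Wnt-dependent guidance and planar polarity were called, 6 higher and 2 lower. By their brightest probe sets Vangl2 (1.42) and Fzd6 (1.21) rose most, against 1.06 and 0.52 in the means of their probe sets. Vangl1 and Celsr1 fell. Smo, the signal transducer of the Hedgehog pathway, rose by 1.89 (limma adjusted p = 1.5e-08), or by 1.26 in the mean of its probe sets. Shh was not called. Among teneurins, large membrane proteins of cell contacts, Tenm3 rose by 1.49 and Tenm4 fell by 1.86. Adgrl2, which encodes a latrophilin, a partner of teneurins and Flrt proteins, rose from 8.51 and 7.99 to 10.17 and 10.18, by 1.93, or by 1.22 in the mean of its probe sets.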
